A study of Mus musculus with 3 samples.

Results

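The genes described here encode the kinases of the mitogen-activated protein kinase (MAPK) cascades and the dual-specificity phosphatases (DUSPs). They were chosen by gene symbol, as the genes named Mapk, Map2k, Map3k, Map4k, Mapkapk or Dusp with a number in the probe annotation table. The rule uses no measured value, but it was set with earlier results of these data known. Of 17886 genes on the arrays, 62 met this rule, of which 38 were kinases and 24 were phosphatases. The kinases comprised 11 MAPKs, 6 MAP2Ks, 15 MAP3Ks, 3 MAP4Ks and 3 MAPK-activated protein kinases (MAPKAPKs). The phosphatases comprised 10 typical MAPK phosphatases and 14 other DUSPs. Some other genes of these families were not analysed here.

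RNA was measured in dendritic cells (DCs) that wild-type mouse bone marrow gave rise to in GM-CSF, a growth factor for myeloid cells, over 5 days. Flow cytometry then separated them by surface PDL2, which binds the PD-1 receptor of T cells. The samples were untreated PDL2-negative cells, PDL2-negative cells given lipopolysaccharide (LPS, which triggers Toll-like receptor 4) at 100 ng/ml, and untreated PDL2-positive cells. Strain, sex, age, the number of mice and the time in LPS are not given in the sources used here. There were 3 arrays, 1 for each kind of sample. Nothing below was therefore checked in replicates, no p-value is given, and the number of arrays limits the precision.

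A MAPK cascade passes a signal through 3 kinases in series, a MAP3K, a MAP2K and a MAPK, with MAP4Ks acting upstream and MAPKAPKs downstream. The ERK, JNK and p38 branches are all engaged when Toll-like receptors of DCs and macrophages are triggered, and they control cytokine transcription and the stability of cytokine mRNA. The MAPKs of these branches are switched on by phosphorylation of a threonine and a tyrosine in the activation loop. DUSPs that remove both phosphates switch them off. This does not hold for every atypical MAPK. Many DUSP genes are themselves induced by MAPK signalling. Kinase activity and phosphorylation were not measured here.

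All levels below are quantile-normalized log2 signals, and all differences are on the log2 scale unless given as a fold. Every gene is read by its brightest probe set. Signals of different probe sets cannot be compared with each other, so levels are compared between arrays within a gene and never between genes. The floor, below which a signal was taken as not measured, was 5.58, the median of all normalized values. A gene counts as higher or lower when it differed by at least 2-fold. Where 1 of the 2 arrays was at the floor, the fold is a bound and is written as at least N-fold.

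Pdcd1lg2, which encodes PDL2, had a level of 8.40 on the untreated PDL2-negative array, 9.44 on the LPS array and 11.73 on the PDL2-positive array. All 11 DC markers listed were above the floor on all 3 arrays; 1 was higher and 0 lower after LPS (median -0.20), and 6 were higher and 2 lower in PDL2-positive than in untreated PDL2-negative cells (median 1.89). The log2 of their summed signal was 15.83, 15.82 and 16.31 in untreated PDL2-negative, LPS-treated and PDL2-positive cells. Such sums are weighted to the brightest probe sets and say little of the others. Here Cd74 read 14.33 on all 3 arrays, H2-Ab1 read 14.29, 14.18 and 13.84, and Ccr7 read 7.74, 12.37 and 14.01. Of 7 cell cycle genes, 5 were lower after LPS (median -1.62) and 6 were lower in PDL2-positive cells (median -2.71), and the log2 of their summed signal was 13.64, 13.14 and 12.20. Of 10 macrophage and monocyte markers, 10 were lower in PDL2-positive cells than in their untreated PDL2-negative counterparts (median -4.59), and the log2 of their summed signal was 15.76, 15.32 and 11.67 in untreated PDL2-negative, LPS-treated and PDL2-positive cells; Mrc1 was at the floor in the last. Of 9 neutrophil and granulocyte precursor markers, 7 were lower after LPS and 0 differed by 2-fold between the PDL2 groups, with summed signals of 14.20, 12.95 and 14.20. Of 5 markers of T, B and NK cells, Cd3d, Cd79a, Ms4a1 and Ncr1 were at the floor on all 3 arrays, as were both erythroid markers, Hba-a1 and Klf1. The remaining marker of the 5, Cd3e, was above the floor on all 3 arrays. It read 6.17, 6.29 and 6.19 in untreated PDL2-negative, LPS-treated and PDL2-positive cells. In sorted bulk samples of this kind, fewer cells of a type and less RNA per cell cannot be told apart, and the part of these markers in the differences below was not tested. The marker lists were chosen with earlier results of these data known.

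Of the 62 members, 50 (80.6%) exceeded the floor somewhere and 43 did so on all 3 arrays. Of all genes, 62.8% exceeded the floor somewhere. The 12 at or below the floor on all arrays were Mapk4, Mapk10, Mapk11, Mapk12, Map3k6, Map3k9, Map3k21, Dusp13, Dusp15, Dusp21, Dusp26 and Dusp27. They include the genes of JNK3, p38 beta and p38 gamma. Of the 50 members above the floor, 26 differed by at least 2-fold in 1 or more of the 3 comparisons. Among all 11230 genes above the floor somewhere, 39.4% did so.

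**Figure D1:**
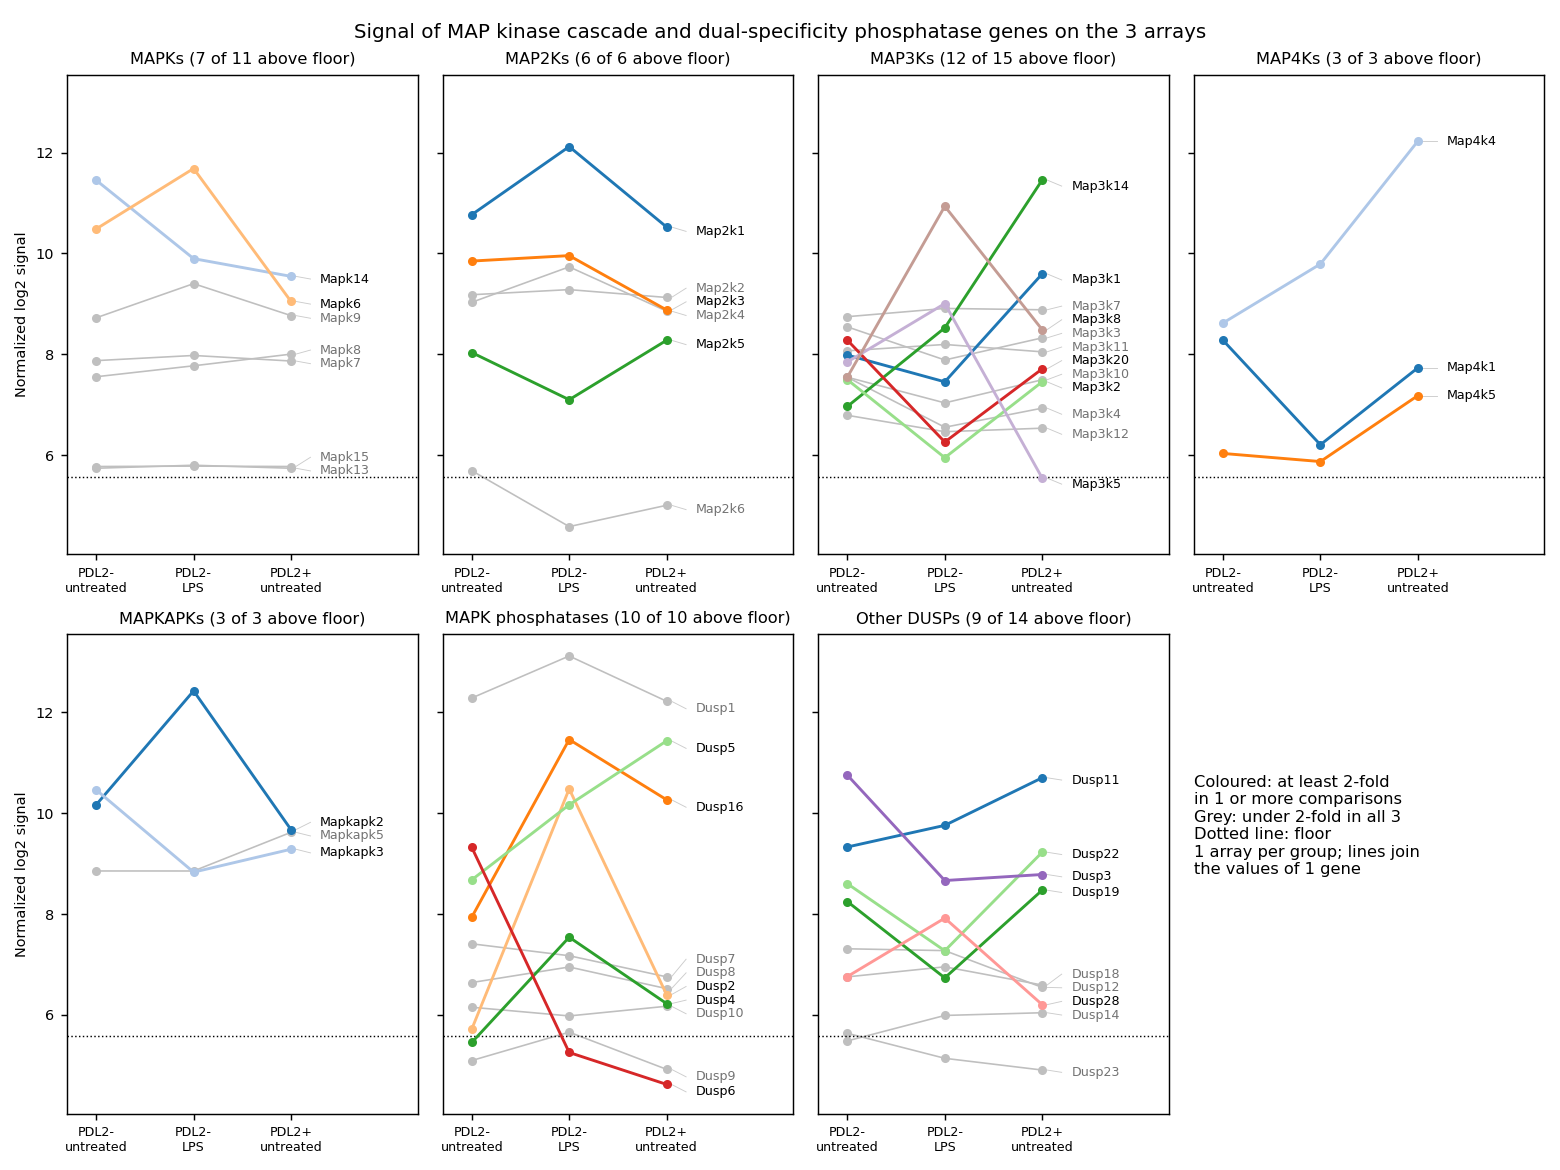
Normalized log2 signal (vertical axes) of the 50 members above the floor of 5.58 (dotted line) on at least 1 array, in PDL2-negative untreated, PDL2-negative LPS-treated and PDL2-positive untreated cells, with 1 panel per tier and 1 array per group. Coloured genes differed by at least 2-fold in 1 or more comparisons and grey genes did not; Dusp2, Map3k8 and Mapkapk2 peak on the LPS array, Map3k14, Map4k4 and Dusp5 on the PDL2-positive array, and Dusp6 is above the floor on the untreated PDL2-negative array alone.

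Upstream promoter sequences are shown for 5 members that span these patterns: Dusp2 (highest after LPS), Dusp5 and Map3k14 (highest in PDL2-positive cells), Dusp6 (above the floor in untreated PDL2-negative cells alone) and Dusp1 (within 2-fold on all 3 arrays). Each is the 250 bases before the RefSeq start site on the GRCm38.p6 build, read 5′ to 3′ on the gene's strand. Capitals mark matches on either strand to the motifs searched.
Dusp2 (chr2:127335909-127336158, + strand): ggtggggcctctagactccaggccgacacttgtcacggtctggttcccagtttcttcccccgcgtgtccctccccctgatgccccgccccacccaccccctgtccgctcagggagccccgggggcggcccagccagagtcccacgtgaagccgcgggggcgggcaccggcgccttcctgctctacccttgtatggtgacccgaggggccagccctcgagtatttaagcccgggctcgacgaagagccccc
Dusp5 (chr19:53528895-53529144, + strand): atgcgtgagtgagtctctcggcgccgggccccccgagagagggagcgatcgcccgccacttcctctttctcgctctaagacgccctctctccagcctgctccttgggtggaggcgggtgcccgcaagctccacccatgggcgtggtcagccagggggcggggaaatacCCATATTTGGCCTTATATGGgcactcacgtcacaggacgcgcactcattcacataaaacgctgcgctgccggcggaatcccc
Map3k14 (chr11:103267402-103267651, - strand): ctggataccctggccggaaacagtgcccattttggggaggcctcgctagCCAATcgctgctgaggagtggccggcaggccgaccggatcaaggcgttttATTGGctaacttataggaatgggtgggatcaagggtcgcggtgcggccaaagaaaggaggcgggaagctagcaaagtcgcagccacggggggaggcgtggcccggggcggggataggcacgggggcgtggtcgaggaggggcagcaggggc
Dusp6 (chr10:99262981-99263230, + strand): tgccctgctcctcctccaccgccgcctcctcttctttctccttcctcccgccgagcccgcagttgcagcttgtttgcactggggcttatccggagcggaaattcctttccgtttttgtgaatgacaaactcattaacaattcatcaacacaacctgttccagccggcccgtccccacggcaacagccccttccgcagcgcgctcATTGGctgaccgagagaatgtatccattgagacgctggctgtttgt
Dusp1 (chr17:26508473-26508722, - strand): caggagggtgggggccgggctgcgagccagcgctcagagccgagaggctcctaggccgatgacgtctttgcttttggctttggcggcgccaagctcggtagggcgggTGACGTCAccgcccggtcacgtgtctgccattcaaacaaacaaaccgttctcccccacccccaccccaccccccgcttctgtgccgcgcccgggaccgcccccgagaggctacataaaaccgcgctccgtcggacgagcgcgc
The motifs were searched on both strands. They were the cAMP response element TGACGTCA, the AP-1 site written as TGANTCA, the TATA box written as TATAAA, the CCAAT box, the CArG box bound by serum response factor, and the kB consensus bound by NF-kB. RefSeq promoters were matched for 51 of the 62 members. The cAMP response element occurred in the Dusp1 sequence, from 143 to 136 bases before the start site, and is held by 1.55% of all 32851 promoter windows of this length. The Dusp5 sequence held 2 CArG boxes, from 82 to 73 and from 72 to 63 bases before the start site. A CArG box is held by 1.47% of all windows, and Dusp5 was the 1 member of those matched with one. The CCAAT box, held by 33.8% of all windows, occurred in the sequences of Dusp6 and Map3k14. The shares for the AP-1 site, the TATA box and the kB consensus were 6.75%, 12.4% and 3.90%, and the 5 sequences shown held none of them. The matches describe the sequence only.

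The first comparison concerns how LPS altered the cascade genes of PDL2-negative DCs. After LPS, 12 members were higher by at least 2-fold and 9 were lower, or 21 in all. Among all 11000 genes measured, the shares were 9.17% higher and 13.8% lower (23.0% in all). Of the 31 kinases measured, 7 were higher and 5 lower (22.6% and 16.1%). Of the 19 phosphatases measured, 5 were higher and 4 lower (26.3% and 21.1%). The median over the 50 members above the floor on either array was 0.09, and over all such genes it was 0.02.

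Among the MAP3Ks, Map3k8 differed most after LPS. It encodes TPL2, the kinase that links Toll-like receptors to MEK1 and ERK. Its level was 7.55 in untreated PDL2-negative, 10.94 in LPS-treated and 8.49 in PDL2-positive cells, so LPS left it 10.4-fold higher. Map3k14, the NF-kB-inducing kinase NIK, stood at 6.97 untreated and 8.53 after LPS (2.94-fold higher), and its second probe set gave 0.92 against 1.56. Map3k5, which encodes the stress kinase ASK1, was 2.23-fold higher, with levels of 7.85 untreated and 9.01 after LPS. Of the MAP3K genes, 2 were lower. Map3k20, the ribotoxic stress kinase ZAK, was 4.05-fold lower (8.28 untreated, 6.26 after LPS), and its second-brightest probe set gave -0.73. Map3k2, an activator of the MEK5 and ERK5 branch, was 2.92-fold lower (7.50 and 5.95), and its second-brightest probe set gave -0.35. Map3k7, which encodes TAK1, the kinase joining Toll-like receptors to JNK, p38 and NF-kB, differed by 0.16 (0.00 in the deposited values). Map3k1 differed by -0.53 after LPS (7.99 and 7.46). The remaining measured MAP3K genes, Map3k3, Map3k4, Map3k10, Map3k11 and Map3k12, differed by -0.99 to 0.13 after LPS and by -0.61 to -0.02 between the PDL2 groups.

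At the MAP2K tier, Map2k1 was the 1 gene past 2-fold. It encodes MEK1, which TPL2 phosphorylates, and its level was 10.77 untreated, 12.12 after LPS and 10.52 in PDL2-positive cells (2.55-fold higher after LPS). Map2k2, the gene of the related MEK2, was at 9.18, 9.28 and 9.13 on the same arrays. The p38 activator gene Map2k3 differed by 0.11. Map2k4, whose product activates JNK and p38, differed by 0.70, and Map2k5, the activator of ERK5, by -0.93. In the deposited values Map2k5 was past 2-fold (-1.16). Map2k6, the other p38 activator gene, was above the floor on the untreated PDL2-negative array alone, at 5.70.

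The MAPKs themselves divided after LPS. Mapk14 encodes p38 alpha, the main p38 of myeloid cells, and read 11.45 untreated and 9.90 after LPS, 2.94-fold lower. Its 5 measured probe sets ran from -1.55 to 0.38, so the probe sets did not give 1 direction. Mapk6 encodes ERK3, an atypical MAPK, and was 2.29-fold higher (10.49 untreated, 11.68 after LPS). Of its 3 measured probe sets, 2 gave 1.20 and 1.36 and the third gave -0.51. The JNK genes Mapk8 and Mapk9 differed by 0.22 and 0.68. Mapk7, the gene of ERK5, differed by 0.10, and Mapk13 and Mapk15 lay just above the floor with differences of 0.06 and 0.01. Before quantile normalization Mapk13 held 1 identical value on all 3 arrays. The differences of Mapk8, Mapk7 and Mapk15 were then 0.00, -0.11 and -0.05.

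The MAPKAPK genes differed in direction. Mapkapk2 encodes MK2, the p38 substrate that stabilizes cytokine mRNAs, and was 4.78-fold higher after LPS (10.17 untreated, 12.42 after LPS, 9.67 in PDL2-positive cells). Mapkapk3, which encodes its close relative MK3, was 3.10-fold lower (10.46, 8.83 and 9.28). Both probe sets of Mapkapk3 were lower by more than 2-fold, at -1.63 and -1.28. Mapkapk5, whose product is a partner of ERK3, was at 8.85 on both PDL2-negative arrays. Upstream, the MAP4K genes also divided: Map4k4 was higher by 1.17 (8.62 and 9.79), while Map4k1, the gene of HPK1, a brake on immune receptor signalling, was 4.20-fold lower (8.28 and 6.21). Map4k5 differed by -0.16.

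Among the 10 typical MAPK phosphatases, 4 were higher and 1 was lower after LPS. The nuclear, inducible phosphatase genes Dusp1, Dusp2, Dusp4 and Dusp5 held 3 of the 4 higher genes. Dusp2, which encodes PAC-1, read 5.72 untreated, 10.48 after LPS and 6.40 in PDL2-positive cells, and was 27.1-fold higher after LPS. Its untreated level lay just above the floor, so this fold is close to a lower bound. Dusp4 was at least 3.90-fold higher, from below the floor untreated to 7.54. For Dusp5, an ERK-selective phosphatase whose promoter above holds the CArG boxes, the levels were 8.68 and 10.17 (2.80-fold higher). Dusp1, which encodes MKP-1, a brake on p38 and JNK in LPS responses, was at 12.28, 13.11 and 12.22 on the untreated, LPS and PDL2-positive arrays, a difference of 0.83 after LPS that did not reach 2-fold. Each of these 4 genes is read by 1 probe set in the table.

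The cytoplasmic, ERK-selective phosphatase genes Dusp6, Dusp7 and Dusp9 gave the opposite picture for 1 gene. Dusp6, which encodes MKP-3 and is known as a transcriptional target of ERK signalling, read 9.32 untreated and lay below the floor after LPS (5.26), at least 13.4-fold lower. It is also read by 1 probe set. Dusp7 differed by -0.24 and Dusp9, near the floor, by at least 0.08. Of the phosphatases that prefer JNK and p38, Dusp16 (MKP-7) was 11.5-fold higher after LPS, at 7.94 untreated and 11.46 after LPS. Its second probe set, below the floor untreated, gave at least 3.29 against 3.52. Dusp8 and Dusp10 differed by 0.31 and -0.17.

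Among the other DUSPs, 1 was higher and 3 were lower after LPS. Dusp3 encodes the small phosphatase VHR and read 10.75 untreated and 8.66 after LPS (4.25-fold lower), but its other 2 probe sets gave 0.00 and 0.03. Dusp19 was 2.85-fold lower (8.25 and 6.74) on a probe set whose probes the array's maker marks as shared by transcripts of more than 1 gene. Its other measured probe set gave -0.90, a bound because that probe set lay below the floor after LPS. For Dusp22, also called JKAP, the fold was 2.51 lower (8.60 and 7.27). Dusp28, an atypical DUSP, was 2.23-fold higher (6.76 and 7.92), but not past 2-fold in the deposited values (0.96) or with median centring (0.99). Among the 9 of these 14 genes that were measured, Dusp11, Dusp12, Dusp14, Dusp18 and Dusp23 stayed under 2-fold.

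Several of these calls rest on the processing. With the floor at the 75th percentile the LPS differences of Map3k14, Map3k20, Map4k1, Dusp19, Dusp22 and Dusp28 no longer reached 2-fold. Map3k2 and Dusp4 lay below that floor on both arrays and had no difference. With the mean of probe sets the differences of Mapk14, Mapk6, Map3k2, Map3k20, Dusp3 and Dusp19 did not reach 2-fold. Without quantile normalization those of Dusp28 and Map3k5 (0.97) did not, while Map2k5 (-1.16) and Map3k4 (-1.18) became lower by more than 2-fold. The LPS counts were then 10 members higher and 11 lower, and they were the same with median centring.

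**Figure D2:**
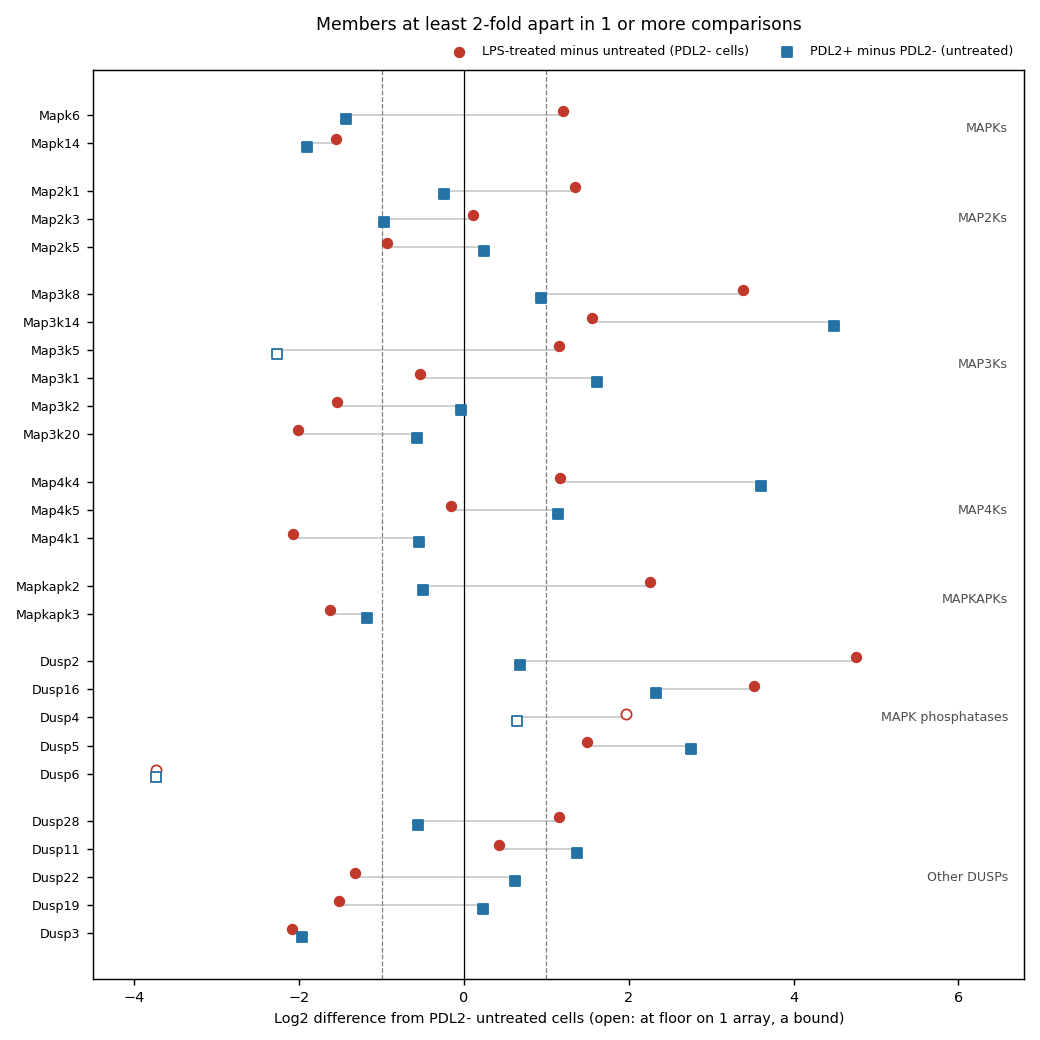
Log2 difference from PDL2-negative untreated cells (horizontal axis) for the 26 members past 2-fold in 1 or more comparisons, in LPS-treated PDL2-negative cells (red circles) and in PDL2-positive untreated cells (blue squares), grouped by tier; dashed lines mark 2-fold and open symbols are bounds. Both sets of differences use the same untreated PDL2-negative array, with 1 array per group; Dusp2 lies at 4.76 and 0.68, Map3k14 at 1.56 and 4.49, and Dusp6 at -3.74 in both.

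The second comparison sets PDL2-positive against PDL2-negative DCs, both untreated. It shares the untreated PDL2-negative array with the first, so values of the 2 are given side by side with no measure of their likeness. In PDL2-positive cells 7 of 49 members measured were higher and 6 were lower, or 13 in all (14.3%, 12.2% and 26.5%). Among all 10926 genes measured, the shares were 10.1% higher and 13.0% lower (23.0% in all). The 31 kinases measured held 4 higher and 4 lower genes (12.9% each). The 18 phosphatases measured held 3 higher and 2 lower (16.7% and 11.1%). The median over the 49 members above the floor was -0.05, and over all such genes it was 0.01. The macrophage and monocyte markers were lower by a median of 4.59 on the same array, as given above.

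Map3k14 and Map4k4 led the kinases. Map3k14, whose product NIK drives the non-canonical NF-kB pathway rather than a MAPK cascade in the strict sense, reached 11.46 in PDL2-positive cells from 6.97 in PDL2-negative cells, 22.4-fold higher. Its second probe set gave 2.94 against 4.49. Map4k4, the gene of HGK, a kinase upstream of JNK, reached 12.22 from 8.62, 12.1-fold higher. The brightest probe set of Map4k4 is marked as shared by several transcripts, and its 4 measured probe sets, which include unshared ones, ran from 3.28 to 3.60. Map4k5 was 2.21-fold higher (6.04 and 7.18), with at least 0.72 on its other measured probe set. Map4k1 differed by -0.55.

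Among the other MAP3Ks, Map3k1 and Map3k5 lay on opposite sides. Map3k1 encodes MEKK1, an activator of the JNK branch, and was 3.05-fold higher (7.99 and 9.60). Map3k5 was at least 4.83-fold lower, from 7.85 to just under the floor (5.55), and its other probe set gave -1.23, also a bound. Map3k8 read 8.49 against 7.55, a difference of 0.94 that did not reach 2-fold. Map3k2, Map3k20 and Map3k7 differed by -0.04, -0.57 and 0.14.

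No MAP2K gene passed 2-fold in this comparison, with values from -0.97 for Map2k3 to 0.24 for Map2k5. Map2k1 differed by -0.25. At the MAPK tier, Mapk14 was 3.75-fold lower, at 9.55 against 11.45, with its 5 measured probe sets from -2.05 to -0.13. Mapk6 was 2.71-fold lower (10.49 and 9.05), and its 3 measured probe sets ran from -1.44 to -0.73. All measured probe sets of both genes were below 0 here, although 2 of Mapk14 lay near it. Mapk8 and Mapk9 differed by 0.45 and 0.04. Mapkapk3 was 2.26-fold lower, Mapkapk2 differed by -0.49 and Mapkapk5 by 0.77.

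Among the phosphatases, Dusp5 and Dusp16 were higher and Dusp6 was lower, while Dusp2 was under 2-fold. Dusp5 reached 11.43 in PDL2-positive cells from 8.68 (6.74-fold higher). Dusp16 reached 10.27 from 7.94 (5.01-fold higher), with at least 1.11 on its second probe set against 2.33. Dusp6 lay under the floor at 4.62, so it was again at least 13.4-fold lower than in untreated PDL2-negative cells. Its 2 folds are equal because both rest on the floor. Dusp2 differed by 0.68, Dusp1 by -0.06, and Dusp4, below the floor in untreated PDL2-negative cells, by at least 0.65.

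Of the other DUSPs, Dusp3 was 3.91-fold lower (10.75 and 8.78), and here its 3 probe sets had 1 direction, from -1.97 to -1.11. Dusp11, whose product acts on RNA 5′ ends rather than on MAPKs, was 2.59-fold higher (9.33 and 10.70), but its second probe set gave -0.15. Dusp19 and Dusp22, both lower after LPS, differed by 0.23 and 0.62. With the mean of probe sets the differences of Mapk14 (-0.97), Mapk6 (-0.90), Map4k5 (0.59) and Dusp11 (0.61) no longer reached 2-fold. With the higher floor that of Map3k5 did not (-0.05), and Map4k5 lay below that floor on both arrays.

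**Figure D3:**
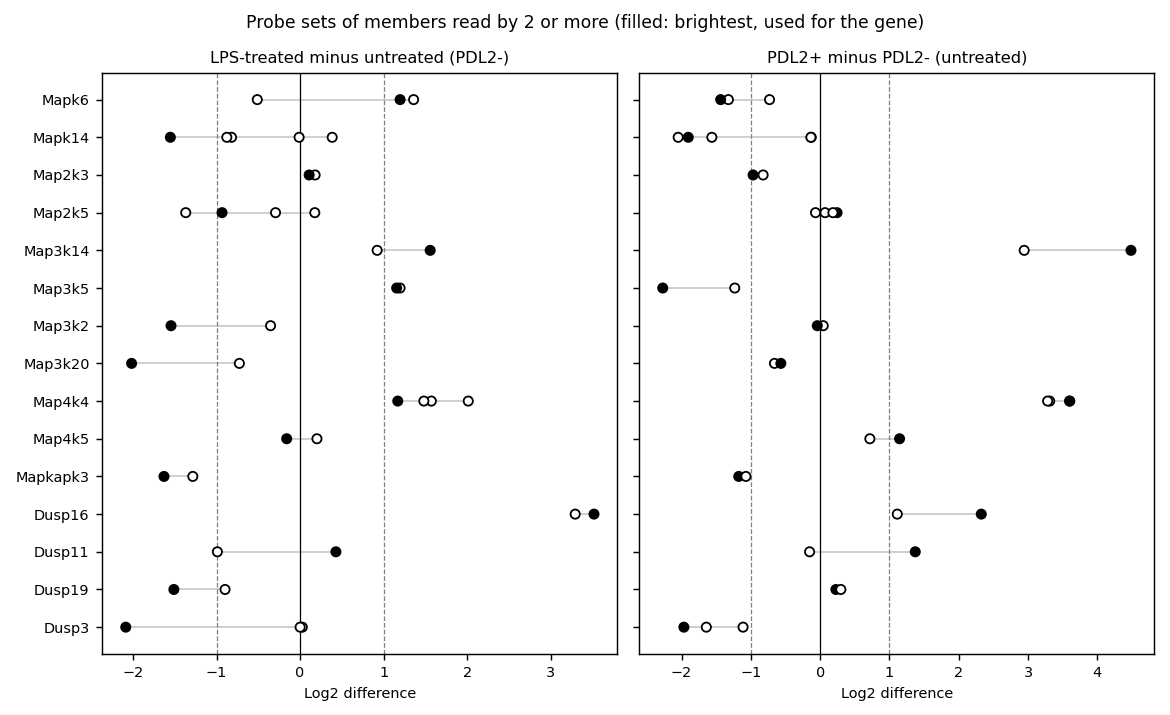
Log2 difference (horizontal axes) of each probe set above the floor on either array, for the members past 2-fold in 1 or more comparisons that are read by at least 2 such probe sets; filled points are the brightest probe set, which stands for the gene, and dashed lines mark 2-fold. The probe sets of Map4k4 and Dusp16 have 1 direction in both panels, while those of Mapk14 after LPS and of Dusp11 in both panels lie on both sides of 0.

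The spread between probe sets is the only error measure in these files. Between a gene's brightest and second-brightest probe sets, the difference had a robust SD of 0.41 over 4212 genes in the LPS comparison and 0.29 over 4243 genes in the PDL2 comparison. For members it was 0.43 and 0.25, over 22 genes in each. Between the PDL2-positive and the LPS array it was 0.44 over 4121 genes and 0.82 over 23 members. Of the 9 members past 2-fold after LPS with 2 measured probe sets, the second had the same direction in 8 and was past 2-fold in 4. In the PDL2 comparison these numbers were 7, 6 and 6, and between the PDL2-positive and the LPS array they were 9, 9 and 6. This spread is technical and says nothing of the variation between mice or cultures.

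The third comparison sets untreated PDL2-positive DCs against LPS-treated PDL2-negative DCs. In PDL2-positive cells 11 of 47 members measured were higher and 10 lower, or 21 in all (23.4%, 21.3% and 44.7%). Among all 11042 genes measured, the shares were 15.6% higher and 12.6% lower (28.2% in all). Of the 30 kinases measured, 8 were higher and 6 lower (26.7% and 20%). Of the 17 phosphatases measured, 3 were higher and 4 lower (17.6% and 23.5%). The median over the 47 members above the floor was -0.03, against -0.05 over all such genes. All 3 MAP4K genes were higher in PDL2-positive cells: Map4k4 5.40-fold, Map4k1 2.87-fold and Map4k5 2.47-fold, the last with 0.52 on its other measured probe set.

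The genes for the TPL2, MEK1 and MK2 kinases were all lower in PDL2-positive than in LPS-treated cells. Map3k8 was 5.45-fold lower, Map2k1 3.02-fold and Mapkapk2 6.73-fold. Mapk6 was 6.21-fold lower, Map2k3 2.11-fold, and Map3k5 at least 10.8-fold. The 3 measured probe sets of Mapk6 ran from -2.68 to -0.22. Map3k14 was 7.62-fold and Map3k1 4.41-fold higher. Map3k2 (2.83-fold), Map3k20 (2.73-fold) and Map2k5 (2.26-fold) were also higher, but the second-brightest probe sets of Map3k2 and Map3k20 gave 0.40 and 0.07. The 4 measured probe sets of Map2k5 ran from -0.11 to 1.55. Mapk14 and Mapkapk3 differed by -0.35 and 0.45.

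Dusp2 was the phosphatase gene that separated these arrays most, 16.9-fold lower in PDL2-positive cells. Dusp4 was 2.49-fold, Dusp16 2.29-fold and Dusp28 3.28-fold lower. Dusp5 was 2.41-fold, Dusp19 3.34-fold and Dusp22 3.87-fold higher. Dusp6 was below the floor on both arrays and has no fold. Dusp1 differed by -0.90. With the mean of probe sets the differences of Map2k5, Map3k2, Map4k5 and Dusp19 no longer reached 2-fold, and Map3k20 fell below the floor on both arrays. With the higher floor those of Map2k5, Dusp19 and Dusp28 did not reach 2-fold. Map4k1, Map4k5, Map3k2, Map3k20 and Dusp4 lay below that floor on both arrays and had no difference. Map4k4 was then the only MAP4K gene past 2-fold.

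**Figure D4:**
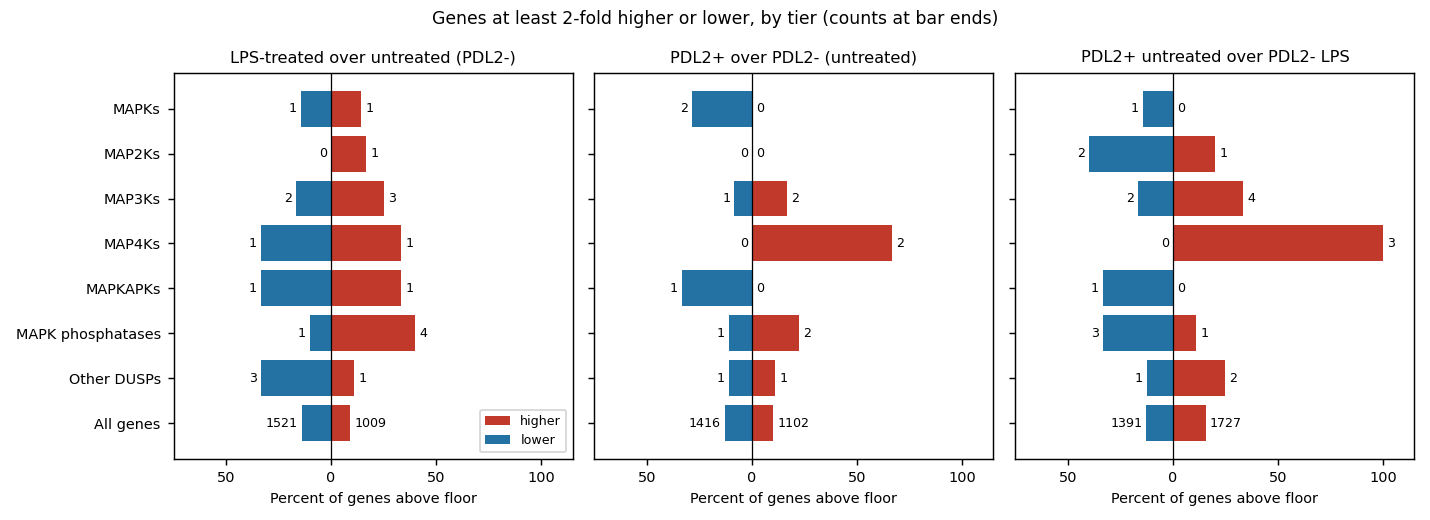
Percent of the genes above the floor in each tier that were at least 2-fold higher (red, to the right) or lower (blue, to the left) in each of the 3 comparisons, beside all genes; the counts stand at the bar ends. The tiers hold 3 to 15 genes each, so 1 gene moves a bar far; in the LPS comparison 4 typical MAPK phosphatases were higher and 1 lower, and in the third comparison all 3 MAP4K genes were higher.

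Other genes of the pathway were taken from lists of inputs, scaffolds, brakes and targets, chosen with earlier results of these data known. Of 108 genes listed, 97 were in the table and 84 were above the floor in the LPS comparison. After LPS 11 of them were higher and 17 lower, in PDL2-positive against PDL2-negative untreated cells 13 were higher and 18 lower, and in the third comparison 17 were higher and 13 lower. As shares of the 84 these were 13.1% and 20.2%, 15.5% and 21.4%, and 20.2% and 15.5%, beside 9.17% and 13.8%, 10.1% and 13.0%, and 15.6% and 12.6% of all genes measured. The medians of the listed genes were -0.06, 0.02 and -0.08, and those of all genes 0.02, 0.01 and -0.05.

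Of the 14 Ras and Raf inputs measured, 3 were higher and 0 lower after LPS (21.4% and 0%). Rasgrp1, a Ras activator that responds to diacylglycerol, read 7.11 untreated, 10.10 after LPS and 8.62 in PDL2-positive cells. The Ras relative gene Rras2 read 8.73, 10.39 and 12.42, a 13.0-fold increase from the untreated PDL2-negative to the PDL2-positive array. Of 16 scaffold and adaptor genes measured, 1 was higher and 4 lower after LPS (6.25% and 25%). Mapkbp1, a JNK-binding scaffold gene, was 13.9-fold higher after LPS (6.22 and 10.03) on a probe set marked as shared. Arrb1, the gene of beta-arrestin 1, differed by 0.15 in the PDL2 comparison and was at the floor after LPS, at least 21.4-fold lower.

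Gadd45b encodes a small activator of MEKK4, the product of Map3k4, and was 20.8-fold higher after LPS and 11.2-fold higher in PDL2-positive cells (8.15, 12.53 and 11.63 on the 3 arrays). Of the 4 other MAPK substrate kinase genes above the floor, 4 were lower after LPS: Mknk2, Mknk1, Rps6ka5 and Rps6ka3. Mknk2, whose product phosphorylates the translation factor eIF4E, read 11.28 untreated, 8.45 after LPS and 11.11 in PDL2-positive cells. Rps6ka5, which encodes the histone kinase MSK1, was 11.4-fold higher in PDL2-positive cells (7.15 and 10.66) and at least 2.97-fold lower after LPS.

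Of 15 genes measured for other phosphatases and brakes, 2 were higher and 2 lower after LPS (13.3% each). In the PDL2 comparison 2 of 15 were higher and 3 lower (13.3% and 20%). Spred1, an inhibitor of Ras and ERK signalling, was 9.57-fold higher after LPS and 3.02-fold higher in PDL2-positive cells (8.36, 11.62 and 9.96). The related gene Spred2 was 2.90-fold lower in PDL2-positive cells. Of 25 nuclear target genes measured, 4 were higher and 6 lower after LPS (16% and 24%). In the PDL2 comparison 2 of 24 were higher and 9 lower (8.33% and 37.5%). Egr1, a transcription factor gene that ERK signalling induces, read 10.88 untreated, 6.89 after LPS and 6.42 in PDL2-positive cells. Fosl2 was 2.30-fold higher after LPS and 11.3-fold lower in PDL2-positive cells.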

How the data were processed

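RNA from 3 samples was measured on 1 array each. The deposited values are the authors' log2 signals, 1 per probe set, a scale read from their range. The sources used here do not give how the authors corrected, normalized and summarized them. After 13 control probe sets were left out of 38546, the 3 columns were quantile-normalized with numpy 2.4.6, because their 75th percentiles (7.90, 7.68 and 7.84) differed. Of 34436 probe sets named in the annotation table, 33987 name 1 gene and were used, 449 name several, and a further 4110 are unnamed. Symbols were updated through a RefSeq table, which held 33800 of them. The brightest mean probe set stood for a gene. Values under the floor were raised to it, and a gene entered a comparison if above it on either array. Of 38533 probe sets, 7011 (18.2%) held 1 identical value on all 3 arrays, among them 17 of 136 of the members. Members named are those past 2-fold in any comparison, plus all MAPK and MAP2K genes; others were named after their values were seen. The members and gene lists were chosen with earlier results of these data known. The calling was tested on simulated data. Alternatives covered normalization, floor, probe set and fold.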

Additional observations from a re-analysis of the deposited data

How the results depend on the processing

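With 1 array per group no replicate could be left out, and no paired analysis was possible because the groups have 1 sample each. Of 55 differences between groups past 2-fold, 53 kept their side of 2-fold in the deposited values and 53 with median centring; without a floor all 55 did. Of 54 measured with the mean of probe sets, 40 did, and of 47 with the floor at the 75th percentile (7.80), 37 did. None of these 5 settings reversed a direction. Without quantile normalization, the median over all genes above the floor on both arrays after LPS was -0.08 against 0.04, and 33.7% rather than 39.9% of genes past 2-fold were higher.

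With the higher floor, 4 members were lower after LPS and 5 were higher in PDL2-positive than in LPS-treated cells. With averaged probe sets these counts were 5 and 6. At 1.5-fold, 12 members were higher and 10 lower in the PDL2 comparison. At 3-fold, 5 were higher and 5 lower after LPS, and 5 were higher in PDL2-positive than in LPS-treated cells. The second-brightest probe set, an alternative added after seeing the data, can be read for fewer genes. It gave 4 higher and 4 lower after LPS, 4 higher in the PDL2 comparison, and 7 higher and 6 lower in the third. Several of these were not the genes called on the brightest probe set. Of the 4 lower after LPS 1 was shared, of the 4 higher in the PDL2 comparison 3, and in the third 4 of the 7 higher and 4 of the 6 lower. Of 32 main differences that the second-brightest probe set could read, 21 kept their side of 2-fold, 9 fell short of it and 2 changed sign. The 2 were Dusp11 in the PDL2 comparison (-0.15) and Dusp3 after LPS, which it left at 0.0003. The cause was not tested. Symbols updated through the Entrez number gave the same 62 members. Signals close to the floor limit what can be said of Dusp2, Dusp4, Dusp6 and Map3k5.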

Other observations

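Some members under 2-fold on their brightest probe set differed by more on another. Mapk8, the JNK1 gene, differed by 0.45 between PDL2-positive and PDL2-negative untreated cells on its brightest probe set, and by 1.56 on its second-brightest (6.76 and 8.32). Map3k4, the gene of the MEKK4 kinase that Gadd45 proteins activate, differed by -0.99 after LPS on its brightest probe set, and its 4 measured probe sets ran from -2.20 to -0.24. Both end values are bounds, with the LPS array below the floor. For Map3k3, which encodes MEKK3, the brightest probe set gave -0.66 and the second-brightest -1.36 after LPS. Map3k7 differed by 0.16 after LPS on its brightest probe set and by -1.23 on another (7.89 and 6.66). Whether these probe sets read different transcripts of a gene was not tested.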
